A study of Rattus norvegicus with 21 samples.

Results

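Antigen presentation genes were followed in the spinal cord of rats given an antibiotic into the airway. The 4 genes were chosen by their Ensembl IDs, out of 32883 IDs in the count files: Cd74 (ENSRNOG00000018735), RT1-Da (ENSRNOG00000032844) and RT1-Ba (ENSRNOG00000000451) belong to the class II pathway, and B2m (ENSRNOG00000017123) to class I. All 4 passed the filter on low counts in both tissues. No measured value entered this choice, but it was made with earlier results of these data known. The study asked how antibiotics act on the central nervous system, using wild type rats of the inbred strain LEW/Crl, aged 6 to 8 weeks. Each animal had received PBS (the buffer control), neomycin (NEO) or vancomycin (VANCO) intratracheally over 7 days. RNA came either from microglia, sorted as CD45low CD11b+ cells after removal of myelin on a Percoll gradient, or from the whole myelin-depleted pellet, called total cord. There were 4 microglia libraries per treatment, numbered 1, 2, 3 and 5 in the labels, and 3 total cord libraries per treatment, numbered 1, 2 and 3. It is not stated whether a library held 1 animal or a pool, nor what the number stands for. The p-values therefore reflect only how these libraries vary, which may be technical.

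MHC class I molecules sit on nearly all nucleated cells and show peptides from inside the cell to CD8 T cells. Their heavy chain is held at the surface by B2m, the beta-2 microglobulin light chain. MHC class II molecules show peptides from engulfed material to CD4 T cells, and are made mainly by professional antigen presenting cells. RT1 is the rat MHC: RT1-Da and RT1-Ba encode alpha chains of its D and B class II molecules. Cd74, the invariant chain, escorts newly made class II dimers and blocks their groove until they reach endosomes. Resting microglia are known for little class II, which they gain when activated, for example by interferon gamma.

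Class II genes are known to share promoter elements, the X and Y boxes, through which the coactivator CIITA acts, and the B2m promoter is known for an interferon response element. The 250 bases before the start of each of the 4 genes are shown, searched for exact matches to short cores of such elements. They are RefSeq sequences of build GRCr8 on the plus strand, written 5′ to 3′, whereas the reads were aligned to rn6. All 4 genes had an entry. Capitals mark matches to GCAAC (core of the X box), ATTGG (core of the Y box, CCAAT on the other strand), TGACGTCA (cyclic AMP response element, CRE) and GAAA, any 2 bases and GAAA again (core of the interferon-stimulated response element, ISRE), each searched on both strands.
Cd74, chr18:56526956-56527205: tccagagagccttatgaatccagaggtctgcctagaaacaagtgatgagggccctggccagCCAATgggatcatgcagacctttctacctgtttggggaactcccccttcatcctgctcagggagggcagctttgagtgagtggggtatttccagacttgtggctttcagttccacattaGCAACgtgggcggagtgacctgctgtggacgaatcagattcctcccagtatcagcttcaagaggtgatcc
RT1-Da, chr20:4515165-4515414: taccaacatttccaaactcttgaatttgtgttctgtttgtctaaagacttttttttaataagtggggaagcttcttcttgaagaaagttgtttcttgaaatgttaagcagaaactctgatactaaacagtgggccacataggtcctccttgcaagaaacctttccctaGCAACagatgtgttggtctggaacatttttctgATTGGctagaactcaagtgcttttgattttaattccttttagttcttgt
RT1-Ba, chr20:4576807-4577056: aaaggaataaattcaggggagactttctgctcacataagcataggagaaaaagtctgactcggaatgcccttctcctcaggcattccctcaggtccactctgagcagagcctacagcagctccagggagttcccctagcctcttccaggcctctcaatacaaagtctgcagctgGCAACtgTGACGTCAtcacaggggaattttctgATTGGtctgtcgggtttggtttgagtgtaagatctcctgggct
B2m, chr3:129549080-129549329: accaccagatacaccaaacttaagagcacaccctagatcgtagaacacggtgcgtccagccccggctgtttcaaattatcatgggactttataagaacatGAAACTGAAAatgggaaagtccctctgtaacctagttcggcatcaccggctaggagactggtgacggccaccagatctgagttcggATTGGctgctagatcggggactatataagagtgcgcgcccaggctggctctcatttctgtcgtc

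GCAAC occurred in all 3 class II promoters, starting 70 bases before the gene in Cd74, 82 in RT1-Da and 76 in RT1-Ba, and it had no match in the B2m window. ATTGG followed it in RT1-Da and RT1-Ba, 49 and 43 bases before the start, so that the beginnings of both motifs were 33 bases apart in each. In Cd74 the Y box core matched on the minus strand, 189 bases before the start and upstream of GCAAC. RT1-Ba also held TGACGTCA, 69 bases before its start and not overlapping GCAAC. B2m held ATTGG at 64 bases and an ISRE match, GAAACTGAAA, at 150 bases. Among 33465 promoter windows of the same length, 29.5% held GCAAC, 34% held ATTGG, 1.59% held TGACGTCA and 3.41% held the ISRE core. GCAAC followed by ATTGG at 20 to 35 bases was found in 0.562% of them, a distance range chosen after these sequences were seen. The matches are letters in a window and no measure of binding. A window without an exact match may still hold a variant of the element, so the search does not show that B2m lacks an X box.

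Total counts were 9020480 to 22435887 in microglia and 16769410 to 25114844 in total cord. In microglia 2204 to 4470 counts fell on Cd74, 362 to 805 on RT1-Da, 283 to 623 on RT1-Ba and 19120 to 38891 on B2m. In total cord the class II genes were thinly covered, with 123 to 384 counts for Cd74, 22 to 85 for RT1-Da and 21 to 62 for RT1-Ba, against 7905 to 13164 for B2m. The lowest of these, 21 counts of RT1-Ba, has an exact Poisson 95% interval of 13 to 32.1 counts, which covers counting error only. NEO microglia replicate 2 stood apart: genes at least 64-fold higher in cord made up 2.57% of its counts, against at most 0.306% in every other microglia library. Genes at least 8-fold higher in microglia made up 23.3% of its counts, the lowest share among the microglia libraries. Levels are given as CPM (counts per 1000000 counts), scaled with TMM factors within each tissue. The files give no gene lengths, so levels are not compared between genes. The labelled cell type was not checked against marker genes, because no table used here pairs the IDs with symbols.

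In PBS animals all 4 genes were higher in microglia than in total cord, the class II genes by 12.8- to 15.5-fold and B2m by 3.06-fold (means scaled over all 21 libraries). Cd74 was at 316, 310, 205 and 176 CPM in PBS microglia replicates 1, 2, 3 and 5, and at 17.2, 17.3 and 10.04 CPM in PBS cord replicates 1, 2 and 3. The lowest microglia library was thus far above the highest cord library. RT1-Da was at 51.9, 43.0, 38.8 and 28.6 CPM in microglia and at 3.65, 3.34 and 1.42 CPM in cord. RT1-Ba was at 45.2, 34.4, 32.1 and 22.5 CPM in microglia, and at 2.74, 2.74 and 1.66 CPM in cord. B2m, which cells of every type carry, was at 1689, 2294, 1468 and 1326 CPM in microglia and at 491, 539 and 487 CPM in cord. The groups did not overlap for any of the 4 genes, on values scaled within each tissue. How many of all genes separate the tissues in this way was not counted. In total cord, fewer cells of a type and less RNA per cell cannot be told apart.

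The log2 fold change of microglia over cord in PBS animals was 3.95 (SE 0.39, adjusted p = 5.2e-08, edgeR quasi-likelihood test with Benjamini-Hochberg adjustment) for Cd74. It was 3.71 (SE 0.43, adjusted p = 3.08e-07) for RT1-Da, 3.67 (SE 0.37, adjusted p = 5.31e-08) for RT1-Ba and 1.61 (SE 0.20, adjusted p = 6.13e-07) for B2m. All 4 passed the threshold of 0.05. Of the 15546 genes tested 84% passed, and 45% of those tested passed as higher in microglia. Passing is thus not particular to these genes. The size of the difference depends on the scaling: over all genes the median was 0.21 with TMM and -0.29 with RLE factors. With RLE factors the values were 3.45 for Cd74, 3.21 for RT1-Da, 3.17 for RT1-Ba and 1.11 for B2m, and all 4 again passed.

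The distance between the tissues was also measured within each antibiotic. In NEO animals the log2 fold change was 3.40 for Cd74, 2.98 for RT1-Da, 2.97 for RT1-Ba and 1.80 for B2m. In VANCO animals it was 3.97 for Cd74, 3.71 for RT1-Da, 3.43 for RT1-Ba and 1.70 for B2m. All 4 genes passed as higher in microglia in NEO, where 83.9% of genes passed and 44% passed as higher, and in VANCO, where 84.1% passed and 45% passed as higher. As ratios of means, Cd74 was 15.5-fold higher in microglia with PBS, 10.6-fold with NEO and 15.7-fold with VANCO, RT1-Da 13.2-, 7.86- and 13.2-fold, and RT1-Ba 12.8-, 7.82- and 10.9-fold. B2m went 3.06-, 3.49- and 3.25-fold. The gap was thus smallest with NEO for the class II genes and largest with NEO for B2m, and the test of that difference is given further on. The B2m part depended on NEO microglia replicate 2. Without that library the log2 fold change in NEO was 1.34 for B2m, 3.09 for Cd74, 2.55 for RT1-Da and 2.60 for RT1-Ba.

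**Figure D1:**
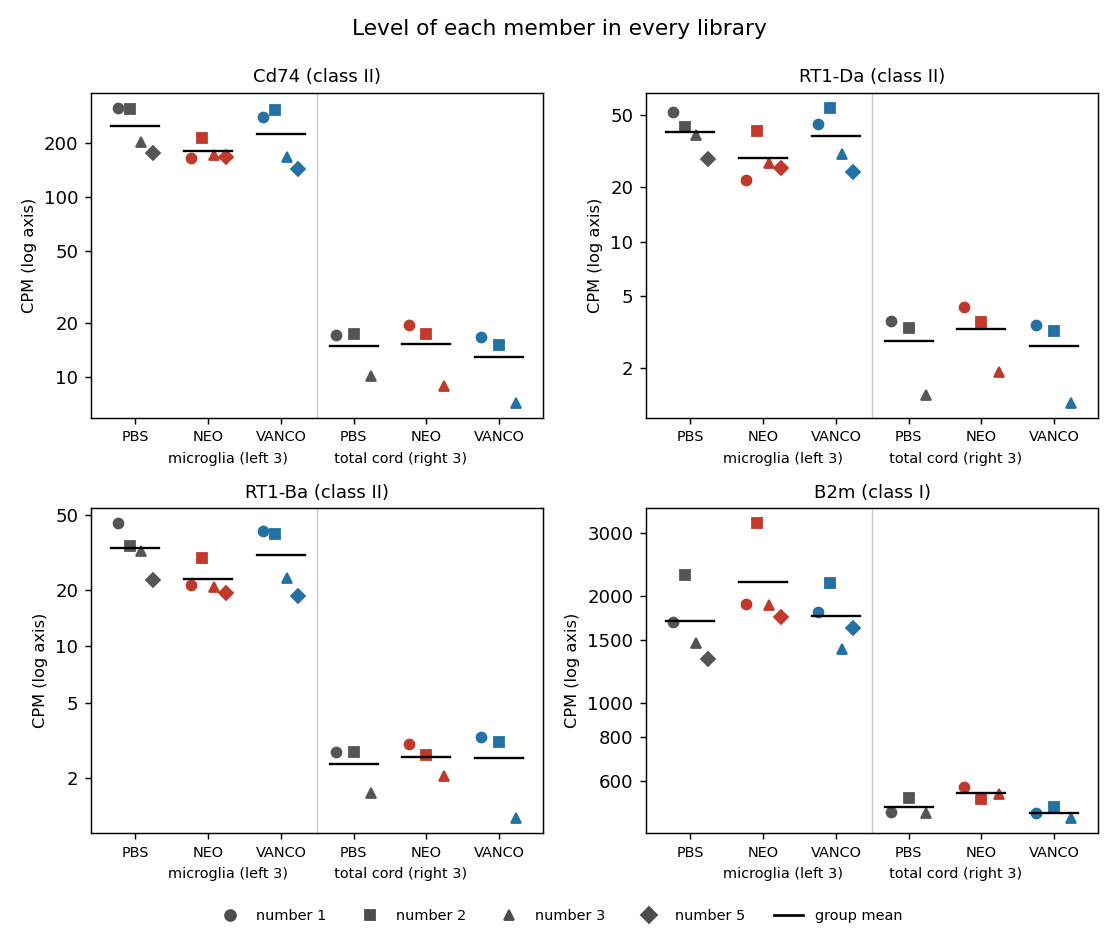
Level of each gene in every library, in CPM on a log axis, by tissue and treatment; symbols show the replicate number and the horizontal line the group mean. Every microglia library lies above every cord library for each gene, and the cord libraries numbered 3 are the lowest of their group for all 3 class II genes.

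With neomycin, the class II genes were lower and B2m was higher than with PBS in each of the 4 same-number pairs of microglia libraries, but 0 of the 4 genes passed the adjusted threshold. Cd74 was at 165, 216, 172 and 169 CPM in NEO replicates 1, 2, 3 and 5. This was 0.522, 0.695, 0.842 and 0.960 of the level in the PBS library of the same number, and the mean was 181 ± 23.6 CPM (SD, n = 4) against 252 ± 72.0 with PBS. The largest gap was thus in number 1, and the groups overlapped because PBS replicates 3 and 5 lay below NEO replicate 2. RT1-Da was at 21.8, 41.0, 27.2 and 25.4 CPM, a mean of 28.9 ± 8.39 (SD, n = 4) against 40.6 ± 9.65 with PBS. RT1-Ba was at 21.3, 29.4, 20.8 and 19.3 CPM, a mean of 22.7 ± 4.56 (SD, n = 4) against 33.5 ± 9.35. For both alpha chains NEO replicate 2 was the highest of its group, and the ranges overlapped. Their largest gap was also in number 1, at 0.421 of the PBS level for RT1-Da and 0.471 for RT1-Ba. B2m was at 1891, 3208, 1887 and 1742 CPM, a mean of 2182 ± 687 (SD, n = 4) against 1694 ± 427 with PBS. Here too NEO replicate 2 was the highest and the groups overlapped.

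The log2 fold change of NEO over PBS in microglia was -0.48 (SE 0.26) for Cd74, -0.49 (SE 0.27) for RT1-Da, -0.56 (SE 0.28) for RT1-Ba and 0.37 (SE 0.23) for B2m. The adjusted p was 0.858 for each (edgeR quasi-likelihood test), in a comparison that called 0.0398% of 12570 genes. No unadjusted p of the 4 was under 0.05, against 5.21% of all genes, and neither DESeq2 nor limma-voom called any of them. A model that pairs libraries by replicate number gave -0.42 (SE 0.15) for Cd74, -0.49 (SE 0.18) for RT1-Da, -0.54 (SE 0.16) for RT1-Ba and 0.35 (SE 0.10) for B2m. The sizes were close to the unpaired ones, with smaller errors. The adjusted p values of this edgeR model were 0.290 for Cd74, 0.311 for RT1-Da, 0.214 for RT1-Ba and 0.174 for B2m, so again none passed, where 0.748% of genes did. All 4 had an unadjusted p under 0.05 in it, from 0.0199 for RT1-Da down to 0.00414 for B2m, as did 13.6% of all genes. Of all genes, 12.3% were lower and 11.8% higher with NEO in every same-number pair.

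NEO replicate 2, the library with the raised share of cord-enriched genes, held the highest B2m level. Without it the unpaired B2m difference was 0.12 (SE 0.18) in place of 0.37, and the paired one 0.28 (SE 0.07, adjusted p = 0.0616, edgeR). The class II differences without it were -0.58 for Cd74, -0.71 for RT1-Da and -0.71 for RT1-Ba unpaired, and -0.37, -0.55 and -0.58 paired. All 4 genes are lower in cord than in microglia, and the part that cord RNA has in these values was not tested. Leaving out any 1 library, paired or unpaired, gave -0.62 to -0.27 for Cd74 and -0.71 to -0.29 for RT1-Da. The range was -0.72 to -0.37 for RT1-Ba and 0.12 to 0.54 for B2m.

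**Figure D2:**
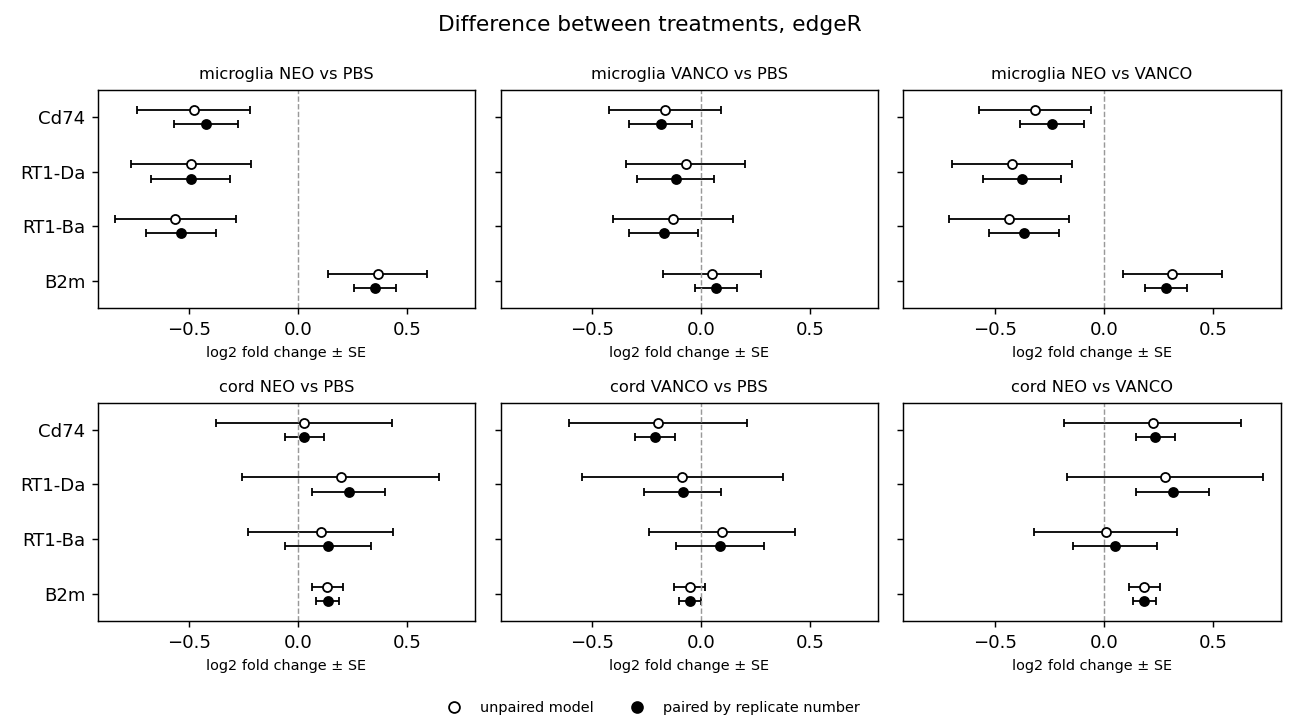
Difference between treatments for each gene, as the log2 fold change ± SE from edgeR, in microglia (upper row) and total cord (lower row). Open circles are the unpaired model and filled circles the model paired by replicate number. In microglia NEO against PBS the class II genes lie near -0.5 and B2m lies to the right of 0.

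With vancomycin none of the 4 genes passed the threshold against PBS in microglia, and the differences were small beside their errors. Cd74 was at 281, 306, 168 and 144 CPM in VANCO replicates 1, 2, 3 and 5 (mean 225 ± 80.8, SD, n = 4), spread as widely as in the PBS libraries. RT1-Da was at 44.5, 55.05, 30.5 and 24.3 CPM, and RT1-Ba was at 41.2, 39.7, 23.0 and 18.5 CPM. B2m was at 1806, 2176, 1416 and 1618 CPM. All 4 ranges overlapped those of PBS. The log2 fold change was -0.16 (SE 0.26) for Cd74, -0.07 (SE 0.27) for RT1-Da, -0.13 (SE 0.28) for RT1-Ba and 0.05 (SE 0.23) for B2m. The adjusted p was 1.00 for each (edgeR), in a comparison that called 0% of genes. None of the 4 had an unadjusted p under 0.05, against 0.859% of all genes, and neither DESeq2 nor limma-voom called one of them. The paired model gave none of them an unadjusted p under 0.05 either, against 2.9% of all genes. Cd74 was below its same-number PBS library in 4 of 4 pairs, as were 7.44% of all genes. The number was 3 of 4 for RT1-Da and RT1-Ba and 2 of 4 for B2m. The unpaired errors leave room for differences of the size seen with NEO. In the paired model VANCO over PBS was -0.19 (SE 0.15) for Cd74, -0.12 (SE 0.18) for RT1-Da, -0.17 (SE 0.16) for RT1-Ba and 0.07 (SE 0.10) for B2m.

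The 2 antibiotics were compared directly, to show whether the pattern with NEO differed from that with VANCO. NEO over VANCO was -0.32 (SE 0.26) for Cd74, -0.42 (SE 0.27) for RT1-Da, -0.43 (SE 0.28) for RT1-Ba and 0.31 (SE 0.23) for B2m. These have the same signs as NEO over PBS, with which they share the NEO libraries. The adjusted p was 0.999 for each (edgeR), where 0% of genes were called. None had an unadjusted p under 0.05, against 2.14% of all genes, and DESeq2 and limma-voom called none of the 4. In the paired model the smallest adjusted p was 0.668, for B2m, where 0.167% of genes were called. RT1-Ba and B2m had an unadjusted p under 0.05 in that model (0.0433 and 0.0138, edgeR), as did 6.44% of all genes. B2m was higher with NEO than with VANCO in 4 of 4 same-number pairs, as were 6.08% of all genes. The class II genes were less uniform: RT1-Da and RT1-Ba were lower with NEO in 3 of 4 pairs and Cd74 in 2 of 4. In microglia, then, the class II means ran from PBS over VANCO to NEO in falling order and the B2m means ran from NEO over VANCO to PBS, and no neighbours in either order differed beyond their spread.

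Class II was set against class I within each library, which removes the library total and the scaling. Cd74 counts in PBS microglia were 18.7, 13.5, 13.9 and 13.3% of B2m counts in replicates 1, 2, 3 and 5. In NEO microglia they were 8.73, 6.73, 9.14 and 9.70%, so that every NEO library lay below every PBS library. In VANCO microglia they were 15.6, 14.0, 11.8 and 8.88%, overlapping both. The mean ratio was 14.9 ± 2.59% with PBS, 8.57 ± 1.3% with NEO and 12.6 ± 2.91% with VANCO (SD, n = 4 each).

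The alpha chains gave the same picture, in ratios that share the B2m counts with the Cd74 ratio and so are not independent of it. RT1-Da counts were 3.07, 1.88, 2.64 and 2.16% of B2m counts in PBS microglia replicates 1, 2, 3 and 5, and 1.15, 1.28, 1.44 and 1.46% in NEO. RT1-Ba counts were 2.68, 1.5, 2.19 and 1.69% with PBS and 1.13, 0.917, 1.10 and 1.11% with NEO. NEO and PBS did not overlap for either ratio, and the NEO mean was 0.547 of the PBS mean for RT1-Da, 0.528 for RT1-Ba and 0.577 for Cd74. With VANCO the ranges were 1.5 to 2.53% for RT1-Da and 1.14 to 2.28% for RT1-Ba, overlapping PBS, and each of the 3 ratios was below its same-number PBS value in 3 of 4 pairs. The ratio to B2m was lower in NEO without overlap for 2.49% of 12569 genes, and for 0.477% with VANCO. It was higher without overlap for 0.127% with NEO and 0.0318% with VANCO. B2m, by which each gene is divided, was itself higher with NEO than with PBS in 4 of 4 same-number pairs. Its part in the split was not tested. No p is given for these ratios, since the genes were chosen with results known. Leaving out 1 microglia library at a time moved the log2 difference of medians between NEO and PBS, -0.62 for Cd74, to between -0.65 and -0.59. For RT1-Da it moved from -0.82 to between -0.96 and -0.67, and for RT1-Ba from -0.80 to between -0.99 and -0.62. A median gives little weight to the outermost libraries, so these ranges say little about them. The median difference from the same-number PBS library was -0.81 for Cd74, -0.72 for RT1-Da and -0.85 for RT1-Ba.

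**Figure D3:**
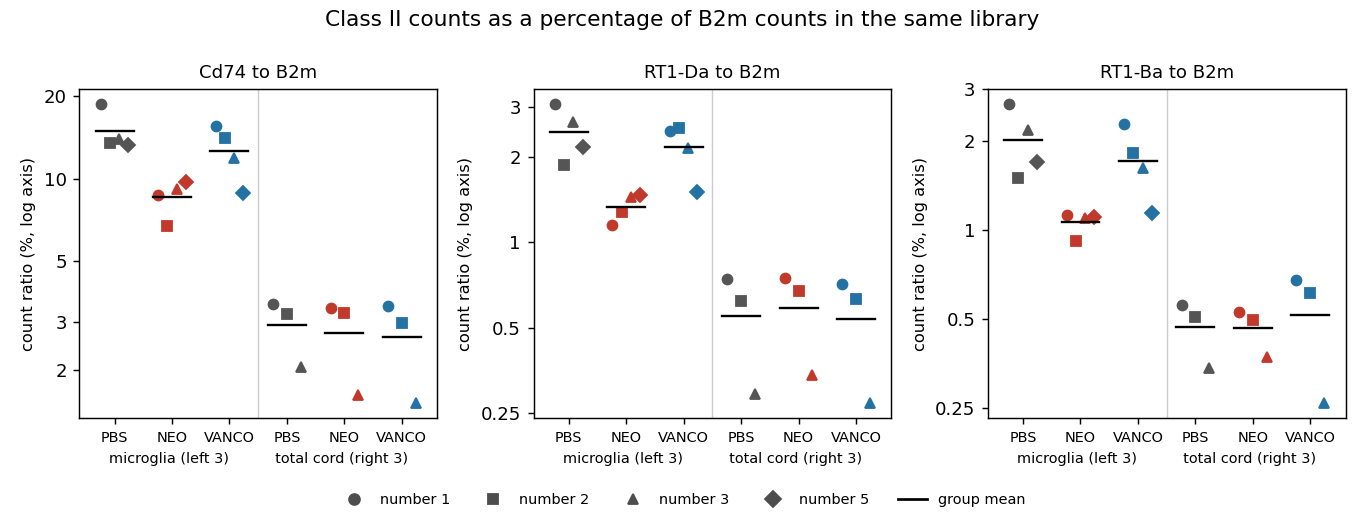
Counts of each class II gene as a percentage of B2m counts in the same library, on a log axis, by tissue and treatment; symbols show the replicate number and the line the group mean. In microglia all 4 NEO libraries lie below all 4 PBS libraries in each panel, while the cord groups overlap.

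Within class II the proportions overlapped between NEO and PBS. RT1-Da counts were 13.2 to 19% of Cd74 counts over the NEO libraries and 13.9 to 18.9% over the PBS libraries of microglia. RT1-Ba counts were 11.4 to 13.6% of Cd74 counts with NEO and 11.1 to 15.7% with PBS. The mean proportion with NEO was 0.963 of that with PBS for RT1-Da and 0.929 for RT1-Ba.

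In total cord, Cd74 was at 19.5, 17.3 and 8.94 CPM in NEO replicates 1, 2 and 3 and at 16.7, 15.1 and 7.13 CPM in VANCO. RT1-Da was at 4.32, 3.60 and 1.89 CPM with NEO and at 3.46, 3.20 and 1.28 CPM with VANCO. RT1-Ba was at 3.05, 2.65 and 2.06 CPM with NEO and at 3.30, 3.10 and 1.22 CPM with VANCO. In every treatment replicate 3 was the lowest, and the treatments overlapped for each class II gene. B2m was at 578, 534 and 552 CPM with NEO and at 486, 507 and 471 CPM with VANCO. Its means were 506 ± 29.0 with PBS, 555 ± 22.0 with NEO and 488 ± 18.1 with VANCO (SD, n = 3 each), a smaller SD relative to the mean than for any class II gene in cord.

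NEO over PBS in cord was 0.03 (SE 0.40) for Cd74, 0.20 (SE 0.45) for RT1-Da, 0.10 (SE 0.33) for RT1-Ba and 0.13 (SE 0.07) for B2m on the log2 scale. VANCO over PBS was -0.20 (SE 0.41) for Cd74, -0.09 (SE 0.46) for RT1-Da, 0.10 (SE 0.34) for RT1-Ba and -0.05 (SE 0.07) for B2m. The adjusted p was 1.00 for all 4 genes in both comparisons (edgeR), each of which called 0% of 14677 genes. None had an unadjusted p under 0.05 in either, against 2.73% of all genes for NEO and 0.845% for VANCO, and DESeq2 and limma-voom called none of the 4. In the paired model 0.681% of genes were called for NEO and 0.00681% for VANCO, and none of the 4 genes was among them, the lowest adjusted p being 0.341 for B2m with NEO. At an unadjusted p under 0.05 that model held B2m for NEO (0.0141, edgeR), with 10.3% of all genes, and Cd74 for VANCO (0.0315, edgeR), with 2.95% of all genes. RT1-Da was higher with NEO than with PBS in 3 of 3 same-number pairs, as were 15.4% of all genes. Cd74, RT1-Da and B2m were lower with VANCO than with PBS in 3 of 3 pairs, as were 11.8% of all genes. Unpaired, the class II errors in cord are large enough to include the differences measured in microglia. In the paired model they were smaller: NEO over PBS in cord was 0.03 (SE 0.09) for Cd74, 0.23 (SE 0.17) for RT1-Da and 0.14 (SE 0.20) for RT1-Ba.

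B2m did not overlap between the 2 antibiotics in cord: its lowest NEO library, at 534 CPM, was above its highest VANCO library, at 507 CPM. Of all genes, 3.78% were higher in NEO without overlap. The difference was 0.19 (SE 0.07, unadjusted p = 0.0245, adjusted p = 1.00, edgeR), in a comparison that called 0% of genes. Of all genes 2.26% had an unadjusted p under 0.05 there, and of the 4 only B2m did, in edgeR, DESeq2 and limma-voom, none of which called it. The paired model gave the same size (SE 0.05, adjusted p = 0.147, edgeR), where 0.436% of genes were called. B2m and Cd74 (unadjusted p = 0.0142, adjusted p = 0.392) had an unadjusted p under 0.05 in it, as did 8.82% of all genes. Without the 3 cord libraries numbered 2 it passed in the paired model, at 0.24 (adjusted p = 0.000377, edgeR), and so did B2m in NEO over PBS, at 0.22 (adjusted p = 0.00174, edgeR). That model called 129 and 398 of 14682 genes. Leaving out NEO cord replicate 2 alone also made both pass, at 0.25 (adjusted p = 0.0047) and 0.20 (adjusted p = 0.0265, edgeR, paired), where 55 and 76 of 14792 genes were called. In each comparison, 5 of the 6 paired models that left out 1 library called none of the 4 genes. The class II differences between NEO and VANCO in cord were 0.22 (SE 0.41) for Cd74, 0.28 (SE 0.45) for RT1-Da and 0.01 (SE 0.33) for RT1-Ba. Cd74, RT1-Da and B2m were higher with NEO than with VANCO in 3 of 3 same-number pairs, as were 15% of all genes. The order of means in cord was NEO, PBS and VANCO for Cd74, RT1-Da and B2m, and NEO, VANCO and PBS for RT1-Ba, and with all libraries no neighbours differed beyond their spread.

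The class II to class I ratios in cord showed no such split by treatment. Cd74 counts were 3.5, 3.21 and 2.06% of B2m counts with PBS, 3.37, 3.24 and 1.62% with NEO and 3.43, 2.97 and 1.51% with VANCO, in replicates 1, 2 and 3. Replicate 3 was the lowest in each treatment, by more than same-number libraries differed between treatments. For RT1-Da the means were 0.551 ± 0.234% with PBS, 0.587 ± 0.216% with NEO and 0.538 ± 0.235% with VANCO, and for RT1-Ba 0.469 ± 0.113%, 0.465 ± 0.0817% and 0.516 ± 0.226% (SD, n = 3 each).

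Whether NEO acted differently in microglia and cord was tested in 1 model of all 21 libraries. The NEO over PBS difference in microglia minus that in cord was -0.54 (SE 0.47) for Cd74, -0.73 (SE 0.54) for RT1-Da, -0.71 (SE 0.47) for RT1-Ba and 0.19 (SE 0.27) for B2m. The adjusted p was 1.00 for each (edgeR), where 0% of genes were called, and DESeq2 and limma-voom called none of the 4. None had an unadjusted p under 0.05, against 2.82% of all genes. Without NEO microglia replicate 2 the unpaired value was -0.0069 (SE 0.21) for B2m, and -0.60 for Cd74, -0.89 for RT1-Da and -0.81 for RT1-Ba. With pairing by number within each tissue the values were -0.47, -0.76 and -0.71 for the class II genes and 0.18 for B2m. Their edgeR adjusted p values were 0.547 for Cd74, 0.490 for RT1-Da, 0.515 for RT1-Ba and 0.696 for B2m, where 0.193% of genes were called. The 3 class II genes had an unadjusted p under 0.05 in that model, as did 9.08% of all genes. For VANCO the same differences lay between -0.24 and 0.09, none passed (adjusted p = 1.00 for each, edgeR), and 0% of genes were called. No unadjusted p of the 4 was under 0.05, with pairing included, where 1.51% of all genes were without and 4.09% with pairing.

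Class II levels in cord went with the replicate number, a comparison chosen after the data were seen. In total cord the libraries numbered 3 held 7.13 to 10.04 CPM of Cd74, against 15.1 to 19.5 CPM in those numbered 1 and 2. RT1-Da was at 1.28 to 1.89 CPM in number 3 against 3.20 to 4.32 CPM, and RT1-Ba at 1.22 to 2.06 CPM against 2.65 to 3.30 CPM. Neither range overlapped the other for any class II gene, and the share of all genes that split in this way was not counted. B2m was at 471 to 552 CPM in number 3 and at 486 to 578 CPM in the others, which overlapped. In the paired model the adjusted p for any difference between numbers in cord was 1.38e-08 for Cd74, 1.03e-05 for RT1-Da, 0.00395 for RT1-Ba and 0.536 for B2m (edgeR), where 32.5% of genes passed. Number 3 also held fewer counts from microglia-enriched genes, 1.34 to 1.37% against 1.4 to 1.52%, and more from cord-enriched genes, 31.4 to 33.2% against 28.7 to 30.1%. The part of either in the class II levels was not tested.

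In microglia the numbers mattered for B2m as well. The adjusted p for any difference between numbers was 0.0158 for Cd74, 0.0420 for RT1-Da, 0.0172 for RT1-Ba and 0.00226 for B2m (edgeR), where 35.8% of genes passed. B2m was highest in number 2 in every treatment. All 3 microglia libraries numbered 2 also differed in makeup: cord-enriched genes held 0.303 to 2.57% of their counts against 0.0367 to 0.112% in the other microglia libraries, and microglia-enriched genes 23.3 to 28.7% against 31.4 to 33.6%. The part of either in the levels was not tested. The libraries numbered 3 and 5 lay below their treatment mean for all 4 genes.

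**Figure D4:**
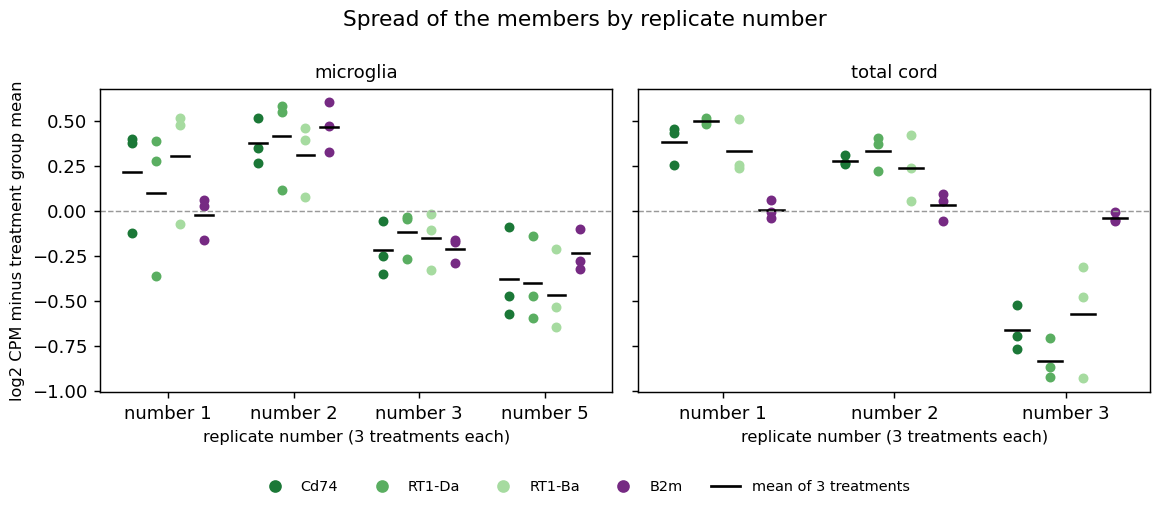
Level of each gene by replicate number, as log2 CPM minus the mean of its treatment group, in microglia and total cord; each point is 1 library and the line is the mean of the 3 treatments. In total cord the class II genes of number 3 lie below those of numbers 1 and 2 while B2m stays near 0.

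The class II genes varied together over the 12 microglia libraries, and each had a lower r with B2m. Pearson's r of log2 CPM was 0.93 between Cd74 and RT1-Da (Spearman's rho 0.92), 0.95 between Cd74 and RT1-Ba (rho 0.89) and 0.95 between the 2 alpha chains (rho 0.93). Each of these had a permutation p for r, adjusted over the 6 pairs of genes, of 8e-05. The permutations treat the 12 libraries as exchangeable, although levels differed between replicate numbers, so these p values may be too small. With B2m, r was 0.39 for Cd74 (rho 0.36, adjusted permutation p = 0.323), 0.35 for RT1-Da (rho 0.27, adjusted permutation p = 0.323) and 0.27 for RT1-Ba (rho 0.21, adjusted permutation p = 0.404). Without the 2 libraries farthest from the median, r was 0.93, 0.96 and 0.98 among the class II pairs, and 0.40, 0.36 and 0.44 with B2m. After subtracting treatment and number means, which leaves fewer independent values and is given without a p, r was 0.83, 0.85 and 0.98 among the class II genes and 0.10, 0.29 and 0.27 with B2m. Without the libraries numbered 2, r with B2m was 0.16 for Cd74, -0.11 for RT1-Da and 0.04 for RT1-Ba, while the class II pairs stayed between 0.94 and 0.97. Whether the 2 sets of r differ was not tested. In cord no pooled r is given, because the libraries numbered 3 form a separate cluster.

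Among 12566 other genes, the 2 whose microglia levels followed Cd74 most closely were ENSRNOG00000024170 (r = 0.94) and ENSRNOG00000019440 (r = 0.85) over the 12 libraries. For B2m they were ENSRNOG00000036971 and ENSRNOG00000009471, with r = 0.97 and 0.96. The files do not pair these IDs with symbols. ENSRNOG00000024170 averaged 27.1 ± 2.83 CPM with PBS, 24.7 ± 1.23 with NEO and 26.1 ± 3.81 with VANCO (SD, n = 4 each). ENSRNOG00000019440 averaged 5.5 ± 1.23 CPM with PBS, 3.77 ± 0.698 with NEO and 5.04 ± 1.55 with VANCO. ENSRNOG00000036971 averaged 8.67 ± 1.98 CPM with PBS, 10.3 ± 3.69 with NEO and 8.48 ± 1.16 with VANCO, and ENSRNOG00000009471 108.8 ± 22.5, 129.0 ± 23.5 and 109.2 ± 14.6 CPM (SD, n = 4 each).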

How the data were processed

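RNA was sequenced from 12 microglia and 9 total cord libraries. The authors deposited raw counts per Ensembl gene ID, 1 file per library, with 32883 IDs each. The submitters' processing notes name the rn6 build, the aligner STAR 2.5.2a, the base-call converter bcl2fastq 2.20.0.422 and the read counter featureCounts 1.5.0-p1, without saying how they were set. Not given in the sources used here are the annotation release, the strand setting and the handling of multi-mapping reads. MHC genes have close relatives and are highly variable between strains, so their counts carry that uncertainty. Groups and replicate numbers come from the sample titles. No library duplicated another: the 27 pairs within groups differed beyond sampling noise (chi-square per degree of freedom 8.35 to 221).

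The tests used edgeR 4.0.16 (R 4.3.3): filterByExpr by group, TMM factors, a robust quasi-likelihood F test, and Benjamini-Hochberg adjustment over all genes tested, with a threshold of 0.05. Separate models covered microglia (12570 genes) and cord (14677 genes), while tissues were compared by fitting all 21 libraries together (15546 genes). Log2 fold changes above 0 mean that the first-named group is higher. The scripts were tested on simulated data. Symbols for the 4 genes came with their IDs. The RefSeq table (GRCr8) matched 0 of 32883 IDs by Ensembl ID, so lists of other antigen presentation genes and of cell type markers were not run, and the other genes named are the 2 most correlated with Cd74 and with B2m, by ID. The members and lists were chosen with earlier results of these data known.

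Replicate numbers recur across treatments. Deviations of log2 CPM (prior count 2) from group means correlated between same-number libraries at 0.24 to 0.79 in microglia and 0.36 to 0.59 in cord, and at -0.55 to 0.34 and -0.49 to 0.01 between other libraries. Subtracting group means pushes other pairs negative. The pairing thus comes from the data, not from a label. A model with the number as a block, called paired, stands beside the unpaired one. Alternatives were DESeq2 1.42.0, limma 3.58.1 with voom, RLE factors, no filter on low counts, only the compared groups, and leaving out libraries. Correlations used 100000 permutations, two-sided.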

Additional observations from a re-analysis of the deposited data

Results flagged for a closer look

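In groups of 4 microglia libraries, 4 of the 21 sets of values examined held a library far from the other 3, where chance gives about 1 in 20 such sets if they are independent. These sets share libraries, and 3 of the 4 concern NEO replicate 2. NEO replicate 2 had 216 CPM of Cd74 against 165 to 172 CPM in the other NEO libraries, and 3208 CPM of B2m against 1742 to 1891 CPM. Its RT1-Ba to B2m ratio was 0.917% against 1.10 to 1.13%. This is the library in which cord-enriched genes made up 2.57% of counts, and their part in these values was not tested. PBS replicate 1 had a Cd74 to B2m ratio of 18.7% against 13.3 to 13.9% in the other PBS libraries. RT1-Da was lower with NEO than with PBS in all 4 microglia pairs and higher in all 3 cord pairs. Of all genes, 12.3% were lower in every microglia pair and 15.4% higher in every cord pair. Genes with both were not counted. The difference between the tissues, -0.73 on the log2 scale, did not pass its test (adjusted p = 1.00, edgeR).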

How the results depend on the processing

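The 12 differences between tissues kept their direction and passed in all 156 alternatives. Of 504 alternatives for the 24 antibiotic differences, 463 kept direction and call, 37 reversed sign without a call and 4, all B2m in cord, gained one. In microglia the differences of all 4 genes between NEO and PBS and between NEO and VANCO kept their sign in every alternative run. The number of these genes called was 0 and became 1 in cord, for NEO over PBS and for NEO over VANCO, with the replicate block and without libraries numbered 2. It also became 1 in both with the block and without NEO cord replicate 2 alone, where 76 and 55 of 14792 genes were called. With the replicate block on all libraries no call on the 4 genes changed. Counts of all genes called were, for NEO over PBS in microglia, 5 in the unpaired model, 94 with the replicate block, 66 with DESeq2, 1 with limma-voom, 2 with RLE factors, 9 with no filter, 0 with only the compared groups and 211 with the block without libraries numbered 2. For VANCO over PBS, 0 became 5 with DESeq2. For NEO over VANCO, 0 became 21 with the block, 16 with DESeq2 and 59 with the block without number 2. In cord, NEO over PBS went from 0 to 100 with the block, 26 with DESeq2, 15 with no filter and 398 with the block without number 2. VANCO over PBS went from 0 to 1 with the block and 5 without number 2. NEO over VANCO went from 0 to 64 with the block, 25 with DESeq2, 13 with no filter and 129 with the block without number 2. The differences between tissues went from 0 to 30 (NEO) and 18 (VANCO) with the block, and to 1 with DESeq2 for VANCO. Leaving out 1 library, with or without the block, gave 0 to 300 genes for NEO over PBS in microglia, 0 to 7 for VANCO over PBS, 0 to 75 for NEO over VANCO, 0 to 89 for NEO over PBS in cord, 0 to 4 for VANCO over PBS, 0 to 64 for NEO over VANCO and 0 to 1 for NEO between tissues, and 0 to 1 of the 4 genes for NEO in cord.

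Besides 1 correlation, the reversed signs belong to differences that did not pass a test, of up to 0.28 in the unpaired model (RT1-Da, NEO over VANCO in cord). Cd74 NEO over PBS in cord was -0.033 with limma-voom. RT1-Da for VANCO between tissues was -0.045 with the replicate block, -0.0016 with DESeq2 and -0.016 with limma-voom. The correlation of RT1-Da with B2m was -0.11 without number 2. Leaving out 1 library, VANCO over PBS in microglia ranged from -0.35 to 5.55e-05 for Cd74, -0.29 to 0.098 for RT1-Da, -0.31 to 0.049 for RT1-Ba and -0.070 to 0.23 for B2m. In cord, NEO over PBS ranged from -0.19 to 0.31 for Cd74, -0.11 to 0.48 for RT1-Da and -0.092 to 0.26 for RT1-Ba. VANCO over PBS ranged from -0.42 to 0.090 for Cd74, -0.39 to 0.23 for RT1-Da and -0.13 to 0.42 for RT1-Ba. NEO over VANCO ranged from -0.063 to 0.50 for Cd74, -0.041 to 0.57 for RT1-Da and -0.32 to 0.23 for RT1-Ba. Between tissues, B2m ranged from -0.0069 to 0.36 for NEO and -0.037 to 0.26 for VANCO, and VANCO ranged from -0.27 to 0.24 for Cd74 and -0.33 to 0.31 for RT1-Da. The cause of these moves was not tested. In cord, 21 to 85 counts per library limit RT1-Da and RT1-Ba.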
